A study of Mus musculus with 17 samples.

Results

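Sgk1 and 5 other genes that glucocorticoids induce in many tissues (Tsc22d3, Fkbp5, Per1, Klf9 and Zbtb16) were followed across 17 Affymetrix mouse gene arrays of embryonic aorta-gonad-mesonephros (AGM) cells. The 6 genes were taken by name from the 19937 genes measured, to be set side by side in fresh against co-cultured cells and between ligands. They were selected on earlier results of these same log2 signals, in which Sgk1 stood out in cells from OP9-Dll4, so the values in those contrasts are given as a description with no test. Each gene was read by 1 probe set that carries a single gene symbol.

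The cells were CD31+CD45-Ter119- cells sorted from pools of AGM regions of E11.5 mouse embryos. The AGM is a region in which haematopoietic stem cells arise from endothelium. Kit- and Kit+ cells (3 arrays each) were sorted fresh, and their arrays come from an earlier series. The remaining CD31+ cells spent 2 h on OP9, a mouse bone marrow stromal line made to carry the Notch ligand Jagged1 (OP9-Jag1) or Delta4 (OP9-Dll4), in medium with serum, cytokines and bovine pituitary extract. They were then sorted again by Kit into Kit-J (2 arrays), Kit+J, Kit-D and Kit+D (3 arrays each). The 11 co-cultured arrays share the medium, the stroma and a repeat sort, and no array holds cells on OP9 without a ligand. Culture therefore cannot be told apart from the array set, the second sort or the serum. The records do not name the mouse strain.

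Glucocorticoids enter cells and bind the glucocorticoid receptor (Nr3c1), which is held ready in the cytoplasm by Hsp90 and its partners. The bound receptor moves to the nucleus and binds paired short motifs in DNA, and a small group of genes then rises within hours in many cell types. Sgk1 encodes a serine/threonine kinase that acts on ion transport, Nedd4 ligases and FoxO factors and lies downstream of PI3K and mTORC2. It is also induced by serum, osmotic stress and growth factors, from which its name (serum- and glucocorticoid-regulated kinase) comes. Fkbp5 encodes an Hsp90 partner that lowers the receptor's affinity for hormone. Tsc22d3 (GILZ) encodes a leucine zipper protein with anti-inflammatory action, Per1 a repressor of the circadian clock, and Klf9 and Zbtb16 (PLZF) zinc finger transcription factors.

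To place the receptor's motif, promoter windows running from 250 bases before to 50 bases after each RefSeq start (mouse build GRCm38.p6) were searched on both strands, and 13 windows matched 5 of the 6 genes. The full palindrome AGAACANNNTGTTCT lay in 3 of 32851 windows (0.00913%), and 1 of these was an Sgk1 window, at position -189 from the start. The hexamer TGTTCT, 1 arm of the palindrome, lay in 19% of all windows and in windows of Sgk1 and Tsc22d3. The E-box CACGTG, the clock motif, lay in 7.15% of all windows and in windows of Sgk1, Per1 and Fkbp5. The shorter palindrome GNACANNNTGTNC, which every full palindrome also holds, lay in 0.475% of windows and, among the 5 genes searched, in windows of Sgk1 alone. It also lay in windows of 4 of 29 other glucocorticoid-induced genes (Fam107a, Mt1, Slc10a6 and Txnip). Sgk1 had the most windows of the 5 genes. A full cAMP response element TGACGTCA (1.79% of windows) lay in none of the 13, and its core TGACG lay in 5 of the 13 against 20.8% of all windows. The 3 windows below are shown because they carry the receptor palindrome (Sgk1, chr10:21993640-21993939, plus strand), the hexamer at -185 (Tsc22d3, chrX:140600473-140600772, minus strand) and an E-box at -166 (Per1, chr11:69098699-69098998, plus strand). Capitals mark the motifs, and in Sgk1 the E-box at -246 overlaps the hexamer.
Sgk1: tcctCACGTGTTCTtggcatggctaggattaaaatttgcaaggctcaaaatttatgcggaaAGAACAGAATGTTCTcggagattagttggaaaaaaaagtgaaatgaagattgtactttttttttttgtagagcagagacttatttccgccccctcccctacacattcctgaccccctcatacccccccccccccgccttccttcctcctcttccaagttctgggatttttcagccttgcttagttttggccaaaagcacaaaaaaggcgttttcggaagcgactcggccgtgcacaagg
Tsc22d3: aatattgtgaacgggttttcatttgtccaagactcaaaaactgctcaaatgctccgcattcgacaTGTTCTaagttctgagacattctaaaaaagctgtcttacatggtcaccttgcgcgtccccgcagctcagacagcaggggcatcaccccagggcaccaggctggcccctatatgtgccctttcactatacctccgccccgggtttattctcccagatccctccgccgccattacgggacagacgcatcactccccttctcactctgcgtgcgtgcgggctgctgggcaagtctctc
Per1: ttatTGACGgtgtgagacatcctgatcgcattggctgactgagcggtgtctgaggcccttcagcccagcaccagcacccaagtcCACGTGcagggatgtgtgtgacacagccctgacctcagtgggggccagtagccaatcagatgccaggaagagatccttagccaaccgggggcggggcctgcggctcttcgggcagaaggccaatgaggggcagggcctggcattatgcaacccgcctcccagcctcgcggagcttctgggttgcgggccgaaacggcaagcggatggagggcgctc
A match says that these letters are in the window, and binding of the receptor was not measured.

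Before the results, 3 facts about the arrays bear on them. Kit mRNA was 8.13 to 8.29 (log2 signal) on the Kit- arrays and 9.44 to 9.55 on the Kit+ arrays, but 9.08 and 8.50 on the Kit-J arrays, above every Kit- array. The 12 endothelial markers (Kdr, Cdh5 and others), as a mean relative to Kit-, were 0.172, 0.208 and 0.681 on the Kit-D arrays, -2.52 and -2.05 on the Kit-J arrays, and -3.23 to -2.87 on the Kit+ arrays. The Kit-J arrays thus stood nearer to Kit+ than to Kit- in these endothelial genes, and for both of them, as for the third Kit-D and Kit+D arrays, 1 line of the record names the opposite Kit population from the title. Titles were followed here. The 15 stromal markers, which OP9 cells could also bring, were highest on the third Kit-D array (0.689) and, within Kit+D, on the third array (0.101, against -1.34 and -0.886). Array signals have no zero, so no marker can be read as absent. In such bulk samples, fewer cells of a type and less RNA per cell cannot be told apart.

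Sgk1 signal was highest in Kit-D cells and next in Kit+D cells, the populations taken from OP9-Dll4. Its log2 signals were 8.29, 8.33 and 8.79 in Kit-D. The Kit+D arrays gave 6.08, 6.55 and 7.27. In fresh cells they were 6.29, 6.22 and 5.87 in Kit- and 5.61, 5.46 and 5.46 in Kit+. On OP9-Jag1 they were 5.49 and 5.61 in Kit-J and 5.82, 5.56 and 5.44 in Kit+J. All 3 Kit-D arrays lay above the other 14. The order of the group means was Kit-D (8.47), Kit+D (6.63), Kit- (6.13), Kit+J (5.61), Kit-J (5.55) and Kit+ (5.51). The arrays of Kit+D and Kit- overlapped, and so did those of Kit+J, Kit-J and Kit+. Kit-D did not overlap Kit+D, nor Kit- Kit+J.

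**Figure D1:**
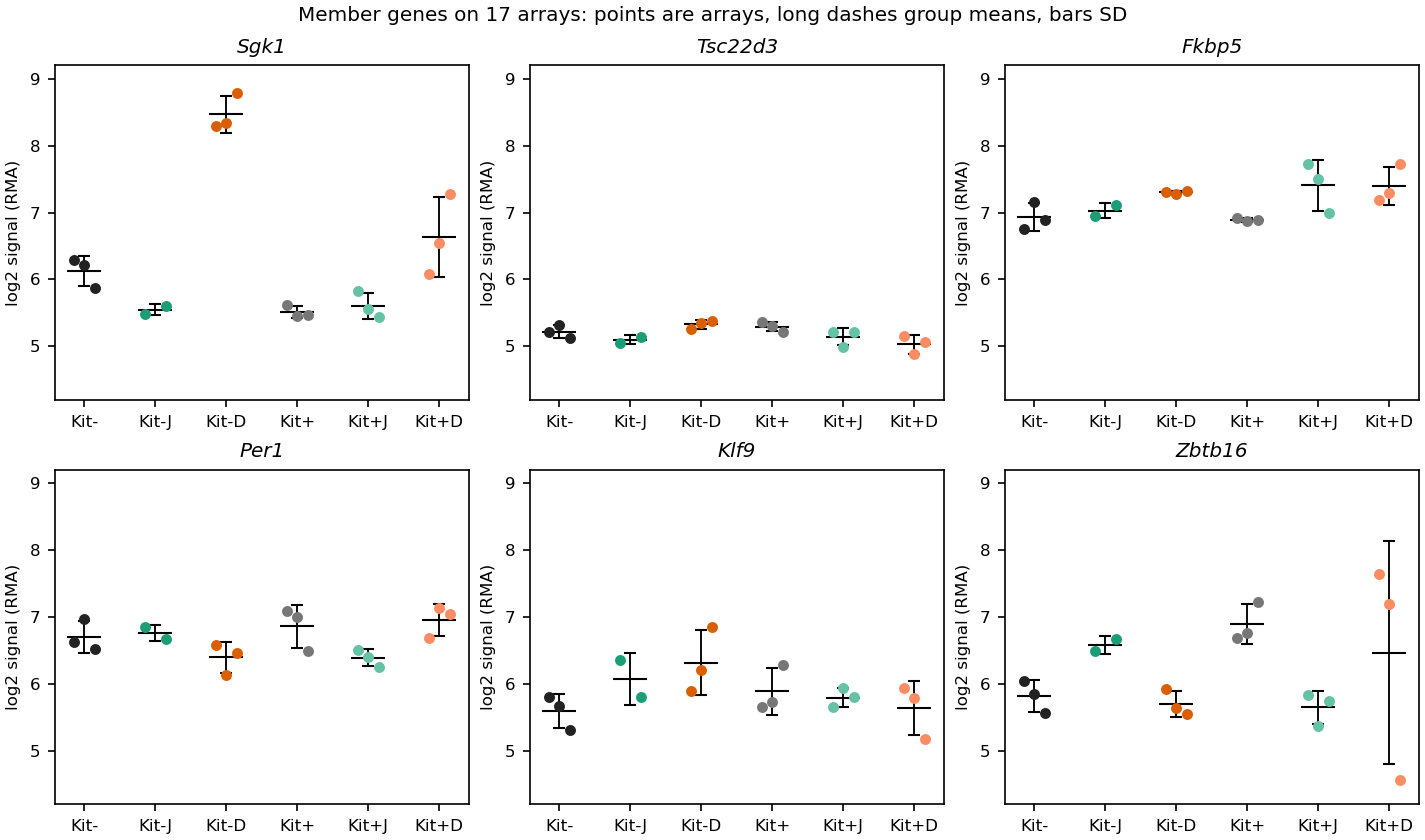
Log2 signal (vertical axes, the same scale in all panels) of the 6 genes on each of the 17 arrays, by group; points are arrays, long dashes group means and bars SD. Sgk1 stands at 8.29 to 8.79 on the 3 Kit-D arrays, Tsc22d3 stays nearly flat, and Zbtb16 spreads from 4.56 to 7.64 within Kit+D.

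Against its own fresh population, Sgk1 was 2.34 log2 units higher in Kit-D (SE 0.24, 95% interval 1.82 to 2.86, a 5.07-fold higher signal). In Kit+D the difference to Kit+ was 1.12 (SE 0.24, 0.61 to 1.64, 2.18-fold). On OP9-Jag1 the same differences were -0.58 in Kit- cells (SE 0.27, -1.16 to -0.002) and 0.10 in Kit+ cells (SE 0.24, -0.42 to 0.61). The culture comparisons of a population share its fresh arrays, and these values are set side by side with no test between them. Between the stromas, Kit-J lay below Kit-D by a difference of -2.92 (SE 0.27, -3.50 to -2.34) and Kit+J below Kit+D by one of -1.03 (SE 0.24, -1.54 to -0.51). The Kit-D difference from Kit- ran from 2.18 to 2.43 as each array was left out in turn. The Kit+D values leaned on the third array, the one of that group highest in stromal markers: without it Kit+D was 0.80 above Kit+, and Kit+J differed from Kit+D by -0.71. Markers of other cell types moved with some of these differences. In Kit-J against Kit-D, the endothelial markers stood apart, all 12 having less signal in Kit-J than in Kit-D, with 11 of them called. All 12 germ cell markers, among them Kit itself, were higher there, 7 of them called (median 2.56). Called lower were 3 of 8 erythroid markers, the globins Hba-x, Hbb-bh1 and Hbb-y, and 3 of 15 stromal markers. In Kit-D against fresh Kit- cells 0 of the 12 endothelial markers were called (limma; 3 at an unadjusted p under 0.05), and 0 of the 12 germ cell markers (8 at an unadjusted p under 0.05). Of all 19937 genes, 2238 were at an unadjusted p under 0.05 (limma) there. The germ cell mean relative to Kit- was -2.24, -1.79 and -0.739 on the Kit-D arrays, with a median difference of -1.63. The median of the 12 myeloid markers was -1.01, Ccr2 and Clec7a being called lower, and their mean was 0.271, -1.74 and -1.76 on the same arrays. In Kit+D, the globins Hba-x and Hbb-y were called higher than in Kit+. All 12 endothelial markers had more signal there (median 0.77), and Kdr was called. By limma, 8 of the 12 were at an unadjusted p under 0.05, beside 3386 of all 19937 genes. In Kit+J against Kit+D, all 12 had less signal (median -0.92), 3 of them called, and the same 2 globins were called lower. The part of these markers in the Sgk1 values was not tested.

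The Kit gate was not among the contrasts behind the choice of the genes, but it uses the same arrays. Sgk1 had been seen to stand out on the Kit-D arrays, so its value in Kit+D against Kit-D, a log2 difference of -1.84 (SE 0.24) or 0.280 of the Kit-D signal, is a description with no test. The other values of the gate were tested with limma and Benjamini-Hochberg adjustment over all 19937 genes. This fit takes no account of a pairing of Kit-D and Kit+D arrays. Of the other 5 genes, 0 were called in Kit+D against Kit-D (3 at an unadjusted p under 0.05, beside 5565 of all 19937 genes). In that contrast 6.62% of all genes were called lower and 6.5% higher, and the groups shared no level, array by array, for 32% of all genes and for 3 of the 6 (Sgk1, Tsc22d3 and Per1). Per1 differed by 0.56 (SE 0.19, adjusted p = 0.0652), Klf9 by -0.68 (SE 0.27, adjusted p = 0.108), Tsc22d3 by -0.30 (SE 0.12, adjusted p = 0.121), Zbtb16 by 0.76 (SE 0.53, adjusted p = 0.384) and Fkbp5 by 0.10 (SE 0.19, adjusted p = 0.781). Leaving out 1 Kit+D array changed this: Per1 passed without the first (adjusted p = 0.0313) and Zbtb16 without the third (difference 1.72, adjusted p = 0.00028). With arrays weighted by their quality, Per1 and Tsc22d3 passed. The share of all genes called was not computed in these fits.

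In fresh cells, 0 of the 6 genes passed the limma test between Kit+ and Kit-, where 0.562% of all genes were called higher and 2.67% lower. At an unadjusted p under 0.05 (limma) stood 1 of the 6, Sgk1, and 2690 of all 19937 genes. Sgk1 differed by -0.62 (SE 0.24, adjusted p = 0.247), every Kit+ array lying below every Kit- array, and Zbtb16 by 1.07 (SE 0.53, adjusted p = 0.414) with every Kit+ array above. Such separation held for 2 of the 6 genes and for 26.5% of all genes. In a fit of the 6 fresh arrays alone, both passed (Sgk1 adjusted p = 0.0475, Zbtb16 adjusted p = 0.0177). The share of all genes called in that fit was not computed. The SE of 0.53 for Zbtb16 draws on the spread within all 6 groups (residual SD 0.742). Its SD was 0.293 in Kit+ and 0.241 in Kit-, against 1.67 in Kit+D. On OP9-Jag1, 0 of the 6 passed between Kit+J and Kit-J (limma, with 0 at an unadjusted p under 0.05, beside 2133 of all 19937 genes). There, 0.0552% of all genes were called higher and 0.0351% lower, and 20% did not overlap, as against 2 of the 6 (Per1 and Zbtb16, both lower in Kit+J). Sgk1 differed between Kit+J and Kit-J by 0.06 (95% interval -0.52 to 0.64).

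**Figure D2:**
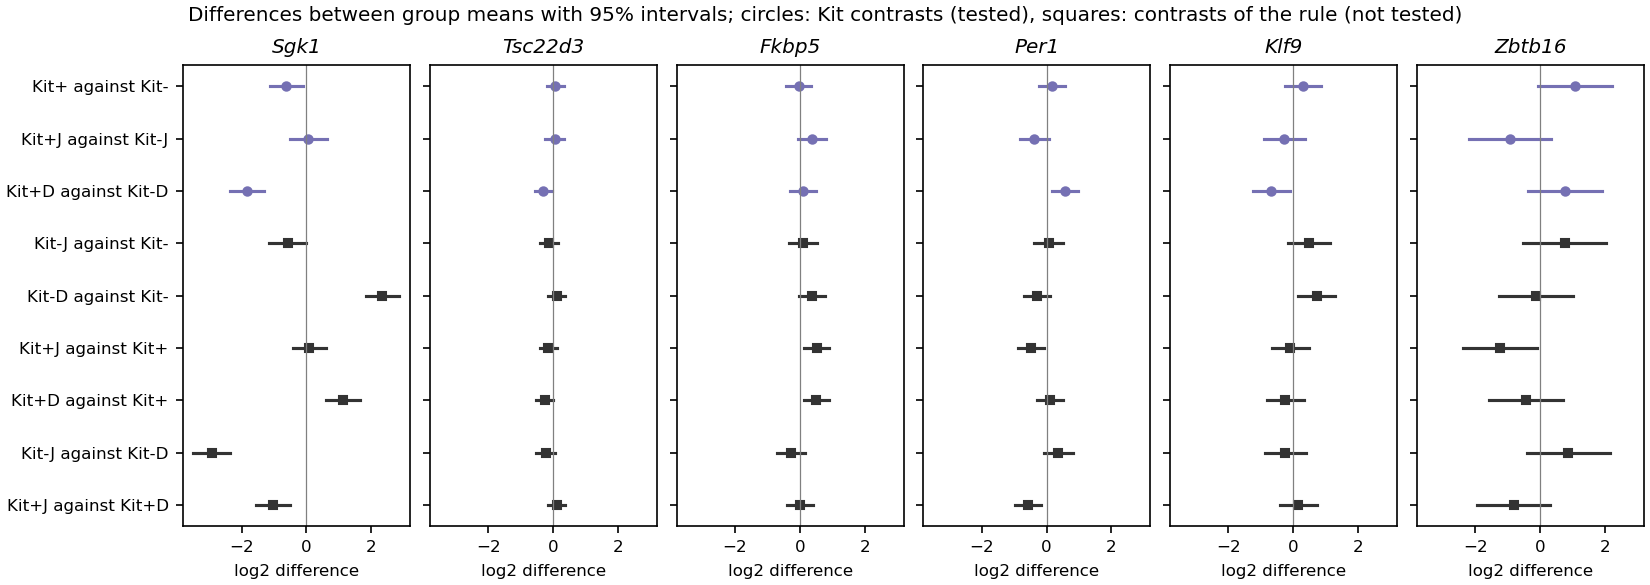
Differences in log2 signal between group means (horizontal axes) for the 6 genes in 9 contrasts, with 95% intervals from the limma model; circles are the Kit contrasts, tested except for Sgk1 in Kit+D against Kit-D, and squares the culture and ligand contrasts, which were not. Sgk1 ranges from -2.92 (Kit-J against Kit-D) to 2.34 (Kit-D against Kit-), while all Tsc22d3 differences lie between -0.30 and 0.11.

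Fkbp5, the receptor's own feedback gene, was slightly higher after culture. Its log2 signals were 6.75, 7.15 and 6.89 in Kit-, 6.92, 6.87 and 6.89 in Kit+, and 6.95 and 7.11 in Kit-J. After OP9-Dll4 they were 7.31, 7.28 and 7.32 in Kit-D. Kit+D gave 7.19, 7.30 and 7.72, while Kit+J gave 7.72, 7.51 and 6.99. Every array of Kit-D, Kit+D and Kit+J lay above every array of the matching fresh population. The differences were 0.37 in Kit-D (SE 0.19, 95% interval -0.02 to 0.77), 0.51 in Kit+J (SE 0.19, 0.12 to 0.91), 0.51 in Kit+D (SE 0.19, 0.12 to 0.91) and 0.10 in Kit-J (SE 0.21, -0.35 to 0.54). Between the stromas Fkbp5 differed by 0.003 in Kit+ cells (-0.39 to 0.40) and by -0.28 in Kit- cells (-0.72 to 0.17).

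Tsc22d3 was nearly flat. Over the 17 arrays its log2 signal ran from 4.88 to 5.38, with an SD of 0.138, and 2.53% of all genes had a lower SD. For Sgk1 the SD was 1.12, above that of 98.2% of genes. The group means of Tsc22d3 ran from 5.03 (Kit+D) to 5.33 (Kit-D), and its mean level lay at the 41.4th percentile of the genes measured.

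Per1 was lowest in Kit+J and Kit-D. Its signals were 6.62, 6.96 and 6.51 in Kit-, 6.85 and 6.67 in Kit-J, and 6.58, 6.13 and 6.46 in Kit-D. In the Kit+ populations they were 7.08, 7.0 and 6.49 in Kit+, 6.51, 6.40 and 6.25 in Kit+J, and 6.68, 7.14 and 7.05 in Kit+D. Kit+J lay below Kit+D on all arrays (-0.57, SE 0.19, 95% interval -0.98 to -0.16), and Kit-J above Kit-D (0.37, SE 0.21, -0.09 to 0.82). Against fresh cells Per1 differed by -0.47 in Kit+J, -0.30 in Kit-D, 0.10 in Kit+D and 0.06 in Kit-J, with overlapping arrays each time.

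Klf9 was highest in Kit-D, at 5.89, 6.21 and 6.85, against 5.80, 5.66 and 5.30 in fresh Kit- cells. The difference was 0.73 (SE 0.27, 95% interval 0.16 to 1.30). The top array of the 3 was the third, which was also the highest in stromal and endothelial markers, and without it the difference was 0.46. Kit-J gave 6.35 and 5.80, so the 2 stromas overlapped in Kit- cells (-0.24, -0.88 to 0.39). In Kit+ cells Klf9 stayed within 5.65 to 6.28 fresh, 5.65 to 5.93 on OP9-Jag1 and 5.18 to 5.94 on OP9-Dll4, all overlapping.

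Zbtb16 had the widest spread within a group. In Kit+D its signals were 7.64, 7.20 and 4.56, an SD of 1.67, the third array being lower than any other of the 17. Every SE and interval of Zbtb16 draws on the spread within all groups, Kit+D among them. In the other groups its SD ran from 0.130 (Kit-J) to 0.293 (Kit+). Fresh Kit+ cells stood at 6.69, 6.76 and 7.23 and Kit+J at 5.84, 5.37 and 5.74, below every fresh array (-1.24, SE 0.53, 95% interval -2.38 to -0.10). Fresh Kit- cells were at 6.04, 5.84 and 5.56, Kit-J at 6.48 and 6.67, and Kit-D at 5.92, 5.64 and 5.55. Kit-J thus lay above Kit- (0.76, -0.51 to 2.03), while Kit-D overlapped it (-0.12, -1.25 to 1.02). Kit-J also had germ cell marker means of 0.886 and 0.620 relative to Kit-, close to the 0.962 to 1.28 of fresh Kit+ cells. In Kit+J, where Zbtb16 was low, these means were 1.52, 1.01 and 1.05, and on the Kit+D arrays they were -1.64, 1.12 and 1.77, the reverse of the order of Zbtb16. The part of these markers in the Zbtb16 values was not tested.

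The 6 genes did not share 1 profile. With each gene centred on its own mean, Sgk1 differed from the other 5 by a root mean square of 1.0 (Fkbp5) to 1.56 (Zbtb16) log2 units over the 17 arrays. Among the other 5 the same measure ran from 0.342 (Tsc22d3 and Fkbp5) to 0.939 (Fkbp5 and Zbtb16). In Kit-D against Kit-, Sgk1, Klf9, Fkbp5 and Tsc22d3 had positive differences and Per1 and Zbtb16 negative ones. The arrays did not overlap for 3 of the 6 there, against 25.8% of all genes. The corresponding counts were 2 of 6 in Kit-J against Kit- (32.5% of all genes), 3 of 6 in Kit+J against Kit+ (11.7%), 3 of 6 in Kit+D against Kit+ (22.1%), 5 of 6 in Kit-J against Kit-D (47.8%) and 2 of 6 in Kit+J against Kit+D (17.1%). These contrasts served to choose the genes, so nothing is read from the counts.

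The genes whose profile lay nearest to that of Sgk1, among 3455 variable genes, were Hbegf, Mgst1, Inhba, Stc1 and Nfat5. Their root mean square differences from Sgk1 were 0.456, 0.490, 0.497, 0.504 and 0.527 log2 units over 17 arrays, against the SD of Sgk1 itself of 1.12. Hbegf encodes an EGF family ligand, Mgst1 a microsomal glutathione transferase, Inhba a subunit of activin, Stc1 a secreted glycoprotein and Nfat5 the factor of the osmotic stress response. All 5 had their highest group mean in Kit-D. Hbegf averaged 8.59 in Kit-D, 6.63 in Kit-, 6.33 in Kit-J and 7.04 in Kit+D, and Inhba 7.62, 5.34, 5.40 and 6.14 in the same groups. Nfat5 averaged 8.10 in Kit-D, 6.78 in Kit-, 6.38 in Kit-J and 6.80 in Kit+D. On the first Kit-D array Sgk1 stood 1.93 above its mean, whereas Inhba stood 0.43 above its own. These genes were picked for their likeness to Sgk1, and their values are a description.

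**Figure D3:**
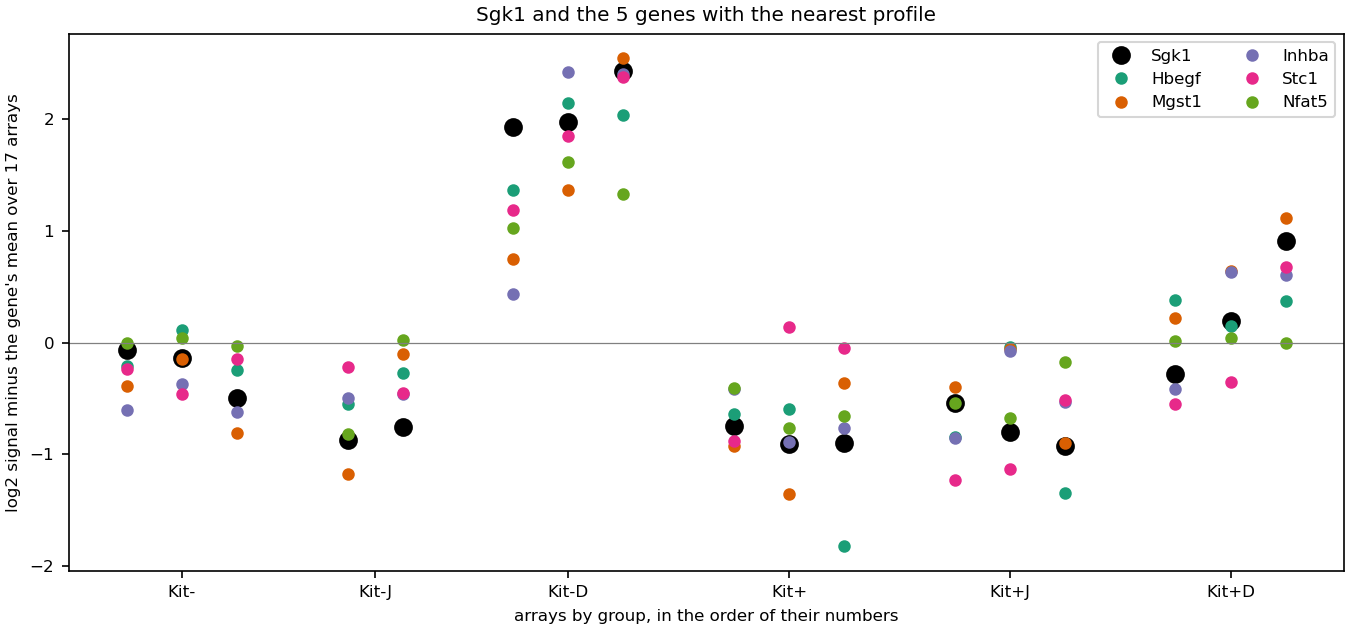
Log2 signal minus each gene's mean over 17 arrays (vertical axis) for Sgk1 (large black points) and the 5 genes with the nearest profiles, by group; points are arrays. All 6 genes have their highest group mean in Kit-D, where Sgk1 stands at 1.93 to 2.43 above its mean.

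For Zbtb16 the nearest profiles were those of Fam110a (0.302), Cmtm7 (0.350) and Psmb10 (0.377), an immunoproteasome subunit, each well under the SD of Zbtb16 of 0.793. For Klf9 they were Bace2 (0.349), Ptchd1 (0.388) and Ptges3l (0.397), against a Klf9 SD of 0.392. The nearest genes to Fkbp5 were Bst2 (0.355), Slc44a1 (0.358) and Pdcd7 (0.358), to Per1 Ebp (0.320), Agk (0.359) and Dsn1 (0.385), and to Tsc22d3 Ubqln2 (0.423), Pcgf3 (0.425) and Lrrcc1 (0.426). For these 3 genes, whose SDs were 0.293, 0.299 and 0.138, a flat line lay nearer than any variable gene.

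The wider pathway was followed through 111 other genes in 8 lists, and it was tested in all 9 contrasts. In the OP9-Dll4 gate (Kit+D against Kit-D), 8 were called higher and 8 lower, 14.4% of the list against 13.1% of all genes. That fit takes no account of a pairing of Kit-D and Kit+D arrays. With a block for the pairs fewer of the 111 were called, as given in the last section. Against fresh Kit- cells, 0 of the 111 were called in Kit-D by limma (15 at an unadjusted p under 0.05, and 6 when arrays were weighted by quality), where 0.145% of all genes were called higher and 0.0251% lower. In the contrast in which Sgk1 differed by 2.34, the median of the 111 genes was 0.05, against -0.02 over all genes. Kit-J against Kit- gave 2 higher and 3 lower (0.251% and 1.89% of all genes), Kit+J against Kit+ 0 by limma (11 at an unadjusted p under 0.05; 0% and 0.0201% of all genes) and Kit+D against Kit+ 1 higher and 0 lower (1.04% and 0.381%; 19 at an unadjusted p under 0.05). Between the stromas, Kit-J against Kit-D gave 2 higher and 10 lower (3.3% and 6.07%) and Kit+J against Kit+D 0 higher and 4 lower (0.577% and 1.68%; 25 at an unadjusted p under 0.05). Fresh Kit+ against Kit- gave 1 higher and 4 lower, and Kit+J against Kit-J 0 by limma (12 at an unadjusted p under 0.05). Of all 19937 genes, limma gave 2238 at an unadjusted p under 0.05 in Kit-D against Kit-. The same count was 1330 in Kit+J against Kit+, 3386 in Kit+D against Kit+, 3814 in Kit+J against Kit+D and 2133 in Kit+J against Kit-J.

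Single arrays moved several of these counts by over 1.5 times, and the share of all genes called was not computed in those fits. Leaving out the third Kit-D array took Kit+D against Kit-D from 16 to 8. Without the first Kit-J array, Kit-J against Kit- gave 0 and Kit-J against Kit-D gave 3, whereas without the second Kit-J array Kit-J against Kit- gave 8 and Kit+J against Kit-J gave 1. Kit-J against Kit-D gave 7 without the first and 6 without the third Kit-D array, and Kit+J against Kit+D 2 without the second Kit+J array and 1 without the second Kit+D array. Kit+ against Kit- gave 2 without the first Kit+ array and 3 without any other single array. Kit+D against Kit+ gave 0 without the first or the second Kit+ array or the second Kit+D array, and 2 without the first or the third Kit+D array.

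**Figure D4:**
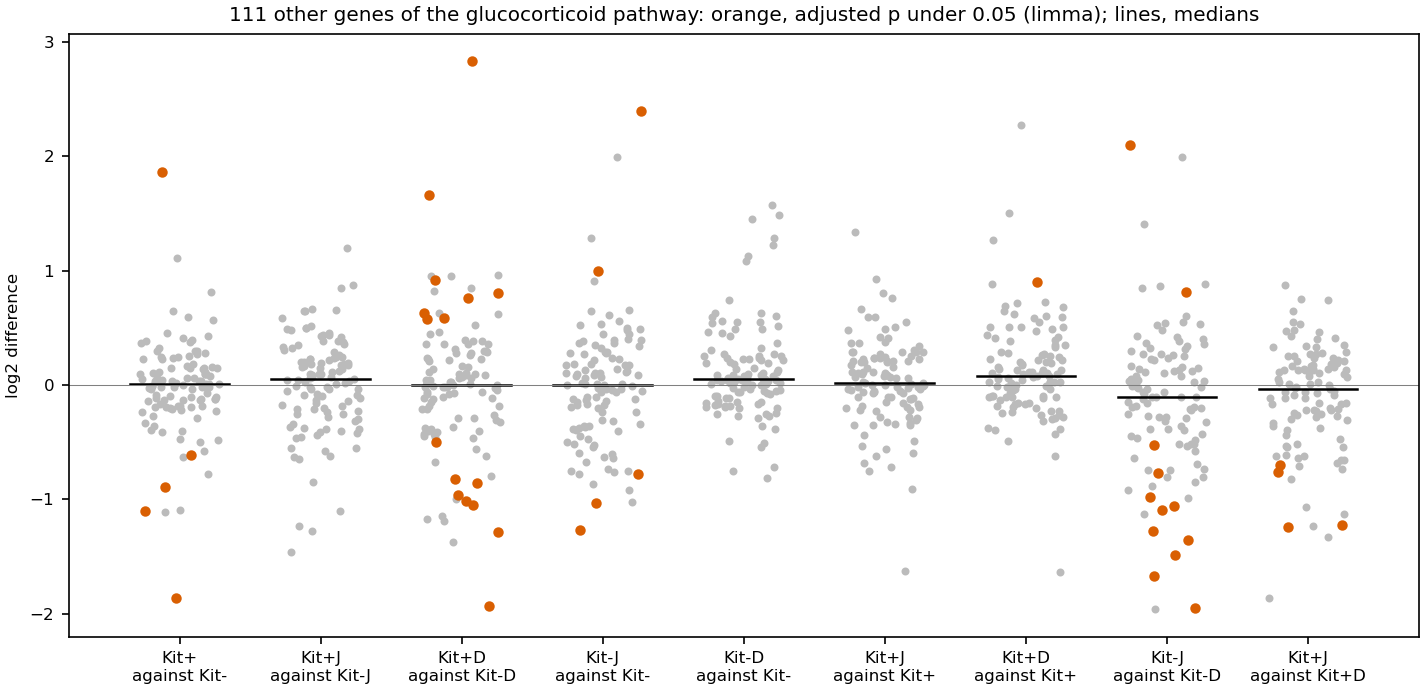
Log2 differences (vertical axis) of the 111 other pathway genes in the 9 contrasts; orange points passed an adjusted p of 0.05 (limma), grey points did not, and black lines are medians. The medians stay near 0, from -0.10 in Kit-J against Kit-D to 0.08 in Kit+D against Kit+, and no gene is orange in Kit+J against Kit-J, Kit-D against Kit- or Kit+J against Kit+.

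The receptors gave no call. Nr3c1, the glucocorticoid receptor, was at 6.46, 6.17 and 6.78 in Kit-D, 6.14, 6.15 and 5.64 in Kit-, and 5.43 and 5.82 in Kit-J. Every Kit-D array thus lay above every Kit- and Kit-J array, with differences of 0.49 over Kit- (SE 0.25, adjusted p = 0.505, limma) and of -0.85 for Kit-J against Kit-D (SE 0.29, adjusted p = 0.0730). In Kit+ cells it averaged 6.0 fresh, 6.21 in Kit+J and 6.47 in Kit+D, with overlapping arrays. Nr3c2, the mineralocorticoid receptor, which also binds glucocorticoids, averaged between 3.93 (Kit-) and 4.25 (Kit+J).

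Hsd11b1 and Hsd11b2 encode the enzymes that make active glucocorticoid from its inactive form and undo that step. Hsd11b1 was at 5.25 and 5.53 in Kit-J and averaged 4.54 to 4.78 in the other 5 groups (Kit-J over Kit- 0.65, SE 0.22, adjusted p = 0.200, limma). Hsd11b2 averaged 5.13 to 5.49, and its smallest adjusted p over the 9 contrasts was 0.467. Of the 8 receptor and ligand supply genes, 1 was called in any contrast: Serpina6, which encodes the corticosteroid carrier of blood, was lower in Kit-J (3.85 and 4.27) than in Kit-D (6.58, 5.93 and 5.53), by a difference of -1.95 (SE 0.56, adjusted p = 0.0430). In Kit+D it was at 3.55, 4.82 and 6.24, the top value being on the array highest in stromal markers. In Kit-J against Kit-D, 11 of the 12 endothelial markers were also called lower, and their part was not tested.

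Other glucocorticoid-induced genes (32 measured) moved in both directions. In Kit-D against Kit- 0 were called by limma, with a median of 0.05 against -0.02 over all genes. There 22 of the 32 differences were above 0, and 9418 of those of all 19937 genes. In Kit+D against Kit-D, 2 were called higher (Mt1 and Mt2) and 2 lower (Rhob and Cdkn1c), 12.5% of the list against 13.1% of all genes, with a median of -0.21 against 0.05 over all genes. Rhob, a small GTPase of endosomes and endothelial junctions, was 6.96, 7.16 and 7.40 in Kit-D, 6.58, 6.62 and 6.43 in Kit-, and 5.49 and 5.53 in Kit-J. In the Kit+ populations it was 6.34, 6.04 and 6.11 in Kit+D, 5.51, 5.56 and 5.90 in Kit+, and 4.86, 4.78 and 5.16 in Kit+J, so that OP9-Dll4 arrays were the highest of each population without overlap. It was called lower in Kit-J against Kit-D (-1.67, SE 0.18, adjusted p = 7.2e-05) and in Kit+J against Kit+D (-1.23, SE 0.16, adjusted p = 0.00251), without overlap. Against fresh cells it differed by 0.63 in Kit-D (adjusted p = 0.115) and by 0.51 in Kit+D (adjusted p = 0.117), neither of which passed.

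Cdkn1c, which encodes the cell cycle inhibitor p57, followed the gate in fresh cells and on OP9-Dll4, but was not called between the gates on OP9-Jag1. It was at 8.69 to 8.86 in Kit-D and 8.36 to 9.12 in Kit-, against 6.55 to 7.09 in Kit+D and 6.77 to 6.87 in Kit+. On OP9-Jag1 it was at 7.47 and 7.35 in Kit-J and 6.68, 7.25 and 7.21 in Kit+J. Kit-J was called lower than Kit- (-1.26, adjusted p = 0.00739, limma). Mt2, a metallothionein that zinc also induces, ran the other way, at 10.3, 10.8 and 8.98 in Kit+D against 6.70, 7.45 and 7.43 in Kit-D (2.83, SE 0.46, adjusted p = 0.00103), and at 9.29 and 9.28 in Kit-J. Endothelial markers were lower in each contrast in which Rhob, Cdkn1c or Mt2 was called, and 3 to 12 of the 12 were called lower there. Of the 12 germ cell markers, 6 were called higher in Kit+D and 7 in Kit-J than in Kit-D. Kit itself, by which the cells were sorted, is 1 of the 12 and was called in both. The part of both lists in these calls was not tested. The set of 10 glucocorticoid-repressed genes gave 1 call in each of 2 contrasts (10% of the list, against 13.1% and 9.37% of all genes), Icam1, an adhesion molecule of endothelium, with less signal in both Kit+D and Kit-J when set against Kit-D (-1.29, adjusted p = 0.0141, and -1.48, adjusted p = 0.0175). Endothelial markers were called lower in both of these contrasts, and their part in the Icam1 calls was not tested.

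Of 12 receptor chaperones, Fkbp4 and Ppp5c were called higher and Bag1 lower in Kit+D against Kit-D, 25% of the list against 13.1% of all genes. Fkbp4, the counterpart of Fkbp5 that favours the active receptor, was at 10.0, 10.2 and 9.90 in Kit+D against 9.07, 8.99 and 9.31 in Kit-D (0.92, SE 0.19, adjusted p = 0.00655). Ppp5c, a phosphatase of the Hsp90 complex, differed by 0.76, and Bag1, an Hsp70 cofactor, by -0.50. Stub1, the ligase that sends Hsp90 clients to the proteasome, was lower on OP9-Jag1 than on OP9-Dll4 in Kit+ cells (-1.24, SE 0.24, adjusted p = 0.0194). Among 10 coregulators, the arginine methyltransferase Carm1 was higher in Kit+D than in Kit-D (0.81), fresh Kit+ (0.90) and Kit+J, the difference for Kit+J against Kit+D being -0.70. Smarca4, an ATPase of chromatin remodelling, stood below its Kit-D level in Kit-J (-0.52).

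Of 18 genes around the Sgk1 kinase, the Kit+D against Kit-D contrast called 2 higher and 3 lower, and the Kit-J against Kit-D contrast 1 higher and 4 lower. These are 27.8% of the list in both, against 13.1% and 9.37% of all genes. Nedd4, a ubiquitin ligase of the family that Sgk1 phosphorylates, was at 10.8 to 10.9 in Kit-D, 10.6 to 10.7 in Kit-, 9.70 and 10.1 in Kit-J and 9.75 to 10.1 in the Kit+ populations. Its difference was -0.86 in Kit+D against Kit-D (adjusted p = 0.000749) and -0.98 in Kit-J against Kit-D (adjusted p = 0.000895). Foxo3, a transcription factor that the kinase holds out of the nucleus, went the other way, being higher by 0.63 in Kit+D and by 0.81 in Kit-J than in Kit-D. Gsk3b and Prr5l, a subunit of the mTORC2 complex that activates Sgk1, were lower in both contrasts, Akt1 was lower on OP9-Jag1 than on OP9-Dll4 in Kit- cells, and Tsc2 was higher in Kit+D. Sgk2 and Sgk3, the paralogues of Sgk1, were called in none of the 9 contrasts. Nedd4 (-0.61, adjusted p = 0.0156, limma) and Prr5l (-1.10, adjusted p = 0.0383, limma) were also called lower in fresh Kit+ against Kit-. Of the 12 endothelial markers, 12 were called lower in Kit+D against Kit-D and 11 in Kit-J against Kit-D. Their part in the calls of this list was not tested.

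The paralogues of the 6 genes gave 3 calls in Kit+D against Kit-D out of 11, Fkbp4 and Zbtb32 higher and Tsc22d1 lower (-1.05, adjusted p = 0.0164), or 27.3% against 13.1% of all genes. Tsc22d1 had a lower level also in Kit-J against Kit-D (-1.05, adjusted p = 0.0363), and Tsc22d4 had less signal in Kit+J than in Kit+D (-0.76, adjusted p = 0.0242). The 14 clock genes beside Per1 gave 0 calls by limma in all 9 contrasts. In each, 0 to 4 were at an unadjusted p under 0.05 (limma), beside 1330 to 5565 of all 19937 genes.

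Serum and cAMP also induce Sgk1, so 15 early response genes were read beside it. In Kit-D against Kit- 0 were called by limma, with a median of 0.16 against -0.02 over all genes. The difference was above 0 for 14 of the 15, and for 9418 of all 19937 genes. At an unadjusted p under 0.05 (limma) stood 1 of the 15, beside 2238 of all genes. Jun was lower in Kit+J than in Kit+ (-1.39, adjusted p = 0.0101) and than in Kit+D (-1.22, adjusted p = 0.00327), and in Kit- cells OP9-Jag1 gave less Jun than fresh cells (-1.10, adjusted p = 0.00469) and than OP9-Dll4 (-1.16, adjusted p = 0.00139). The mean of the 15 genes relative to Kit- was 0.0461, 0.241 and 0.455 on the Kit-D arrays and -0.276 and -0.232 on the Kit-J arrays. For Kit+J it was -0.530, -0.523 and -0.795, and for Kit+D -0.139, -0.289 and -0.247. Its part in the Sgk1 values was not tested.

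Whether the response to culture or ligand differed between Kit- and Kit+ cells was tested for the 111 genes as a difference of differences. Cdkn1c passed for culture on OP9-Jag1 (-1.50, SE 0.30, adjusted p = 0.0374) and for the ligand (-1.56, SE 0.30, adjusted p = 0.0203), and Nedd4 passed for the ligand (-0.82, SE 0.20, adjusted p = 0.0478). For culture on OP9-Dll4, 0 of all 19937 genes passed (limma), and the difference was 0.02 for Nr3c1 (SE 0.36) and 0.13 for Rhob (SE 0.22). Both passing genes rest on the Kit-J arrays described above. How many of all genes passed for OP9-Jag1 and for the ligand is not given here, so these calls are a description.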

How the data were processed

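Total RNA of the 17 samples was amplified and hybridised to Affymetrix mouse gene arrays. Per the labels, the authors deposited log2 values made by RMA, which corrects background, sets arrays to a common distribution and summarises probes. The version of RMA and the test for differential expression are not given in the sources used here. RMA compresses differences of dim probe sets, and amplification from little RNA adds spread. The number of arrays limits the precision, and residual degrees of freedom were 11.

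The table holds 34760 probe sets, of which 21640 name a single gene, 1321 name several genes and 11799 none. The brightest per gene was kept, giving 19937 genes. A group-means model over all arrays was fitted in R 4.3.3 using limma 3.58.1. Variances were moderated by eBayes, p-values were adjusted by the Benjamini-Hochberg method over every gene measured, and calls were made below an adjusted p of 0.05. The labels call the arrays biological replicates, and the p-values measure the spread between them. The model was tested on simulated data. The 6 genes and all gene lists were chosen with earlier results of these data known. Named beside the 6 were up to 4 called genes per list and contrast with the smallest adjusted p, the receptors Nr3c1 and Nr3c2, both Hsd11b enzymes, and the nearest profiles (5 for Sgk1, 3 for each other gene) by root mean square difference among genes with an SD of at least 0.5. Gsk3b, Prr5l, Akt1 and Tsc2, Sgk2 and Sgk3, and the early gene Jun were taken from the lists after their values were seen. Some listed genes were not analysed here. Promoter windows were RefSeq's, and Zbtb16 is named only.

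Replicate numbers come from the titles. Deviations from the group means of OP9-Dll4 arrays that share a number (Kit-D with Kit+D) correlated over all genes at 0.462, 0.179 and 0.289. For Kit-D and Kit+D arrays of unlike number the values ran from -0.380 to 0.134. The numbers were taken to pair those arrays, but the main fit leaves the pairing out. For fresh cells the values were 0.00644, 0.0323 and 0.065, and for the 2 pairs on OP9-Jag1 -0.114 and -0.263. Alternatives were other scalings, array weights, a variance trend, a filter on dim genes, the mean of probe sets, a fit of the compared groups alone, a replicate block and leaving out each array. Leaving out the third Kit-D and Kit+D arrays together and a block on the OP9-Dll4 arrays alone were chosen after seeing the data. The plots used matplotlib 3.10.9 and pandas 2.3.3 under Python 3.11.15.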

Additional observations from a re-analysis of the deposited data

Results flagged for a closer look

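Zbtb16 moved in opposite directions on OP9-Jag1 in the 2 populations, being 0.76 above fresh cells on both Kit-J arrays and, at -1.24, below fresh cells on all 3 Kit+J arrays, so that the effects were 2.00 log2 units apart. The difference was not tested. Per1 was higher on OP9-Jag1 than on OP9-Dll4 in Kit- cells (0.37) and lower in Kit+ cells (-0.57), in each case with every array of one stroma on the same side of every array of the other. These effects were 0.937 apart, and the difference was not tested. Both rest on the 2 Kit-J arrays, whose endothelial marker levels stood nearer to Kit+ than to Kit- cells.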

How the results depend on the processing

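Sgk1 kept its direction under every alternative in Kit-D against Kit- (2.18 to 2.43), Kit-J against Kit-D (-3.01 to -2.76) and Kit+D against Kit-D (-2.16 to -1.56). Leaving out 1 array at a time gave 0.80 to 1.40 for Kit+D against Kit+ and -1.30 to -0.71 for Kit+J against Kit+D, and leaving out the third Kit-D and Kit+D arrays together gave 0.80 and -0.71. The housekeeping genes shifted the median of all genes by 0.19 (Kit+D against Kit+), -0.17 (Kit+ against Kit-) and -0.15 (Kit+J against Kit-J), and by less than 0.1 in the other 6 contrasts.

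Of the 6 genes, 2 were called in Kit+ against Kit- in a fit of those groups alone and 1 with array weights. The share of all genes called was not computed under the alternatives, so nothing is read from counts of the 6 genes. In Kit+D against Kit-D, Sgk1 is left out as a value with no test, and no other gene of the 6 was called as fitted. Array weights called Per1 and Tsc22d3. Leaving out the third Kit-D and Kit+D arrays together called 1 of the other genes, and leaving out single arrays at most 1.

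Of the 111 other pathway genes, a fit of the compared groups alone called 8 (Kit+ against Kit-), 8 (Kit+D against Kit-D), 1 (Kit-J against Kit-), 0 (Kit+D against Kit+) and 0 (Kit+J against Kit+D). Array weights gave 11 in Kit+ against Kit-, 6 in Kit-D against Kit-, 7 in Kit-J against Kit-D and 3 in Kit+D against Kit+. Housekeeping scaling gave 10 (Kit+D against Kit-D), 1 (Kit-J against Kit-) and 7 (Kit-J against Kit-D). Without the third Kit-D and Kit+D arrays, the counts were 10 in Kit+D against Kit-D and 2 in Kit+D against Kit+. Leaving out single arrays gave 2 to 3 in Kit+ against Kit-, 0 to 1 in Kit+J against Kit-J, 8 to 22 in Kit+D against Kit-D, 0 to 8 in Kit-J against Kit-, 0 to 2 in Kit+D against Kit+, 3 to 14 in Kit-J against Kit-D and 1 to 6 in Kit+J against Kit+D. The share of all genes called was not computed under these alternatives, and the cause was not tested.

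With the replicate block over all arrays, 3 pathway genes were called in Kit+ against Kit-. With the replicate block on the OP9-Dll4 arrays alone, where the numbers pair the arrays, 9 were called in Kit+D against Kit-D. It changed no other count by over 1.5 times.

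Differences near 0 changed sign. In Kit+ against Kit-, housekeeping scaling gave -0.0083 for Per1 and -0.10 for Tsc22d3, and leaving out single arrays gave -0.13 to 0.072 for Fkbp5. In Kit+J against Kit-J, housekeeping scaling gave -0.10 for Sgk1 and -0.11 for Tsc22d3, and leaving out single arrays gave -0.048 to 0.15 for Sgk1 and -0.0032 to 0.12 for Tsc22d3. In Kit+D against Kit-D, Fkbp5 was -0.063 to 0.21 without single arrays and -0.053 without the third Kit-D and Kit+D arrays. Of the values of single genes under the alternatives, 1188 kept direction and side of the threshold or, if untested, moved by less than the residual spread. Untested values near 0 among them may have changed sign. Of the tested values, 156 no longer passed the threshold and 8 newly passed it. A change of sign was counted for 10, taking untested values only if above the residual spread as fitted. Another 7 values with no test moved beyond the residual spread. Dim probe sets limit what can be seen, since their differences are compressed.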
